A study of Mus musculus with 10 samples.

Results

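Endothelial cells line all blood and lymph vessels, and a group of 31 genes that mark their identity was examined in muscle with and without desmin. These members were taken from a list of names, and each was matched by its symbol to 1 of the 54232 Ensembl genes of the deposited table. RNA was sequenced from striated muscle, per the study the gastrocnemius of the calf (in places given with the plantaris beside it), of 5 homozygous desmin knock-out mice (genotype Des -/-) and 5 wild-type mice (Des wt/wt), all with a strain label made of the parts B6J, 129Sv and Destm1Cba/Cscl and, per the methods, littermates of 3 months of age. The knock-out is carried by all cells, and desmin is made by the smooth muscle and pericytes of vessel walls as well as by muscle fibers. The methods speak of pooling the RNA of 5 muscles per genotype, but the table has 1 column per mouse, and each column was used as 1 replicate. If the columns share pooled RNA, p-values measure only the spread between columns. Expression is given as rlog value, a log2 scale that adjusts for sequencing depth and shrinks the values of weakly expressed genes, so that differences are smaller than those of counts. All 31 members had a mean rlog value of at least log2(10) and were thus among the 14289 genes tested.

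The endothelium of skeletal muscle consists mainly of capillaries that run along the fibers, with smaller numbers of arterial, venous and lymphatic vessels. Its cells are held together by junction proteins such as VE-cadherin and PECAM-1, sense angiopoietins and TGF-β family ligands through receptors such as Tie2 and endoglin, and owe their identity to transcription factors of the ETS and SoxF families. In RNA of whole muscle, fewer endothelial cells and less RNA per endothelial cell cannot be told apart. The members were ordered as 19 pan-endothelial genes, 6 genes with preference for capillaries, 4 with preference for arteries and 2 named as lymphatic, and the questions were how each group stood in desmin knock-out muscle and whether the groups differed in this.

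Des, the targeted gene, had rlog values of 16.22, 16.26, 17.74, 16.55 and 16.10 in wild-type mice 1 to 5 and of 11.89, 11.88, 11.82, 11.88 and 11.76 in desmin knock-out mice 1 to 5. Each library thus carried the Des level of its label. Wild-type mouse 3 stood apart. Its rlog values, summed on the linear scale, came to 1.48 times the median mouse, against 0.949 to 1.06 times in the other 9 mice, and it correlated with its own genotype at 0.982 on average, the other wild-type mice at 0.989 to 0.991. Acta1, the skeletal muscle actin, lay between 19.74 and 21.18 in the 10 mice, and Pecam1 and Cdh5, which define endothelium, lay between 9.46 and 10.95.

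Of the 31 endothelial identity genes, 12 were lower in the knock-out mice at an adjusted p under 0.05 (limma, adjusted over all tested genes) and 1, Rgcc, was higher, while 18 did not pass. Among all tested genes, 5.99% were lower and 7.7% higher by the same rule, whereas the 12 members make up 38.7% of the list. The mean was lower in knock-out than in wild-type mice for 30 of the 31 members, compared with 50.5% of all tested genes, and higher for Rgcc, compared with 49.5%. With 1 mouse left out, 26 to 30 members had a lower mean. The median difference over the members was -0.35 on the log2 scale (interquartile range -0.47 to -0.21), compared with -0.0029 (interquartile range -0.16 to 0.18) over all tested genes. For 9 members, or 29%, the genotypes were fully separated with the knock-out mice lower, which 6.97% of all tested genes showed, and for Rgcc they were separated the other way (7.45%). Without knock-out mouse 2, the number of lower members was 7, and without wild-type mouse 3 it was 10. Of all tested genes, 4.01% and 8.13% were lower in these 2 fits.

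**Figure D1:**
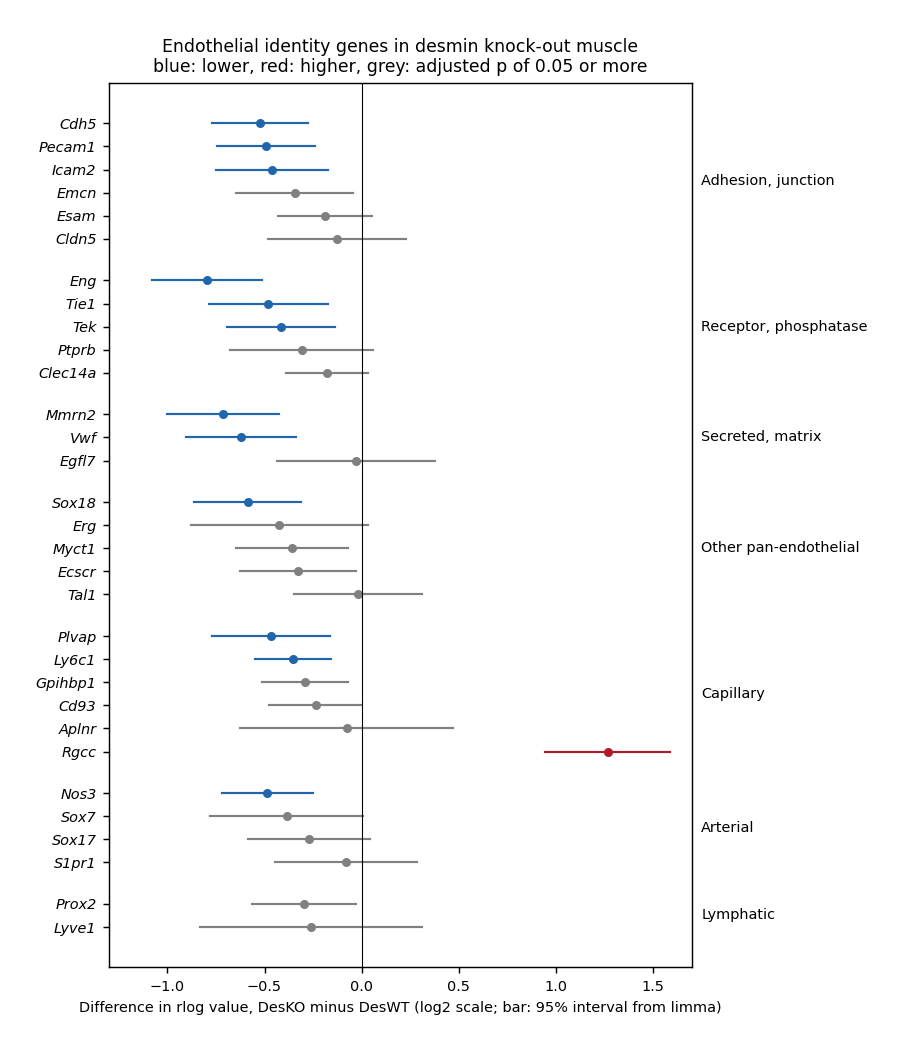
Difference in rlog value between desmin knock-out and wild-type muscle for the 31 members (x axis, log2 scale), grouped by role. Points are differences of means of 5 and 5 mice and bars are 95% intervals from limma. The 12 blue genes were lower, Rgcc in red was higher by 1.27, and the 18 grey genes had an adjusted p of 0.05 or more.

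The adhesion and junction genes are the classical markers of endothelium. Of these 6 members, 3 were lower and none was higher, with a median difference of -0.40. Pecam1 (ENSMUSG00000020717, chromosome 11, 106654217 to 106750628; all positions are on GRCm38) encodes the adhesion molecule PECAM-1 at the contacts between endothelial cells. Its rlog values were 10.53, 10.81, 10.95, 10.47 and 10.64 in wild-type mice 1 to 5 and 10.45, 10.01, 10.02, 10.29 and 10.18 in knock-out mice 1 to 5. The highest knock-out value, in mouse 1, lay just below the lowest wild-type value, in mouse 4. The difference was -0.49 (standard error, SE, 0.12, limma adjusted p = 0.013), which is 0.711-fold of the wild-type level on this scale. Cdh5 (ENSMUSG00000031871, chromosome 8, 104101625 to 104144511), which encodes VE-cadherin, the cadherin of endothelial adherens junctions, had 10.08, 10.29, 10.34, 10.19 and 10.47 in wild-type and 9.89, 9.58, 9.46, 9.87 and 9.95 in knock-out mice 1 to 5. Here too the genotypes did not overlap, and knock-out mice 2 and 3 were the lowest, as they were for Pecam1. Cdh5 differed by -0.52 (SE 0.11, limma adjusted p = 0.00797). Icam2, an adhesion ligand of leukocyte integrins, had 7.06, 7.23, 7.45, 7.16 and 7.15 in wild-type and 7.09, 6.50, 6.52, 6.93 and 6.72 in knock-out mice 1 to 5, with only knock-out mouse 1 inside the wild-type range. Its difference of -0.46 (SE 0.13, limma adjusted p = 0.0362) kept an adjusted p under 0.05 in 4 of 10 fits with 1 mouse left out, and lost it without knock-out mice 2, 3 or 5 or wild-type mice 2, 3 or 4, where it was between -0.47 and -0.40.

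The remaining junction members did not pass the test. Emcn, a sialomucin of capillary and venous surfaces, differed by -0.35 (95% interval -0.65 to -0.043, limma adjusted p = 0.128), and 3 of 5 knock-out mice were lower than every wild-type mouse. For Esam, an adhesion molecule of tight junctions, the difference was -0.19 (95% interval -0.43 to 0.055), and -0.12 without wild-type mouse 4. Cldn5, the main claudin of endothelial tight junctions, had a difference of -0.13 (95% interval -0.48 to 0.23), and wild-type mouse 4 with 8.16 was its highest value. Without that mouse the mean of Cldn5 was slightly higher in knock-out muscle, by 0.022. The intervals of Esam and Cldn5 hold 0.

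The group of receptors and a receptor phosphatase held the largest fall of the list. Eng (ENSMUSG00000026814, chromosome 2, 32646595 to 32682669), which encodes endoglin, the co-receptor for TGF-β family ligands on endothelium, had rlog values of 9.62, 9.80, 10.26, 9.92 and 9.73 in wild-type mice 1 to 5 and 9.29, 9.12, 8.77, 9.17 and 9.01 in knock-out mice 1 to 5. Even knock-out mouse 1, the highest of its genotype, was well below wild-type mouse 1, the lowest of the other. The means were 9.87 ± 0.24 (SD, n = 5) and 9.07 ± 0.20 (SD, n = 5), a difference of -0.80 (SE 0.13, limma adjusted p = 0.0011), or 0.576-fold on this scale. In fits without 1 of the mice the difference stayed between -0.86 and -0.70. Fpgs, which lies on the opposite strand and shares 61 bases with the exons of Eng, differed by -0.24 (limma adjusted p = 0.374).

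Tie1 and Tek encode the receptor tyrosine kinases Tie1 and Tie2 of the angiopoietin pathway. Tie1 had 9.17, 9.54, 9.96, 9.58 and 9.42 in wild-type and 9.22, 8.97, 8.74, 9.16 and 9.17 in knock-out mice 1 to 5, a difference of -0.48 (SE 0.14, limma adjusted p = 0.0385). Wild-type mouse 1 fell into the knock-out range. Tek had 9.06, 9.20, 9.17, 8.67 and 9.29 in wild-type and 8.86, 8.66, 8.37, 8.72 and 8.69 in knock-out mice 1 to 5, a difference of -0.41 (SE 0.13, limma adjusted p = 0.0474), and here it was wild-type mouse 4 that lay in the knock-out range. Both calls were close to the threshold. The call of Tie1 was lost without any 1 of the knock-out mice or of wild-type mice 2 and 4 (adjusted p up to 0.0974), and that of Tek without any 1 of the mice other than wild-type mouse 4 (adjusted p up to 0.117), while both differences stayed negative. Ptprb, the receptor phosphatase VE-PTP that acts on Tie2 and VE-cadherin, differed by -0.31 (95% interval -0.68 to 0.06, limma adjusted p = 0.265), and by -0.16 without wild-type mouse 5. Clec14a, a C-type lectin of endothelial cells, had 7.03, 7.04, 6.79, 6.83 and 6.84 in wild-type and 6.71, 6.75, 6.77, 6.76 and 6.66 in knock-out mice 1 to 5. Its genotypes did not overlap, but lay so close that the difference of -0.18 (SE 0.10) did not pass (limma adjusted p = 0.26).

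Of the 3 secreted or matrix members, 2 were lower. Vwf, the von Willebrand factor stored in Weibel-Palade bodies, had 8.66, 8.72, 9.22, 8.52 and 9.04 in wild-type and 8.16, 8.08, 8.20, 8.34 and 8.27 in knock-out mice 1 to 5. The knock-out mice lay close together and all below the wild-type mice, whose highest value was that of mouse 3. The difference was -0.62 (SE 0.13, limma adjusted p = 0.00619), and -0.53 without wild-type mouse 3. Mmrn2, multimerin 2, a protein of the endothelial matrix that binds CD93 and CLEC14A, had 8.34, 8.56, 8.84, 8.30 and 8.57 in wild-type and 8.13, 7.56, 7.62, 7.87 and 7.85 in knock-out mice 1 to 5. It was again separated by genotype, with a difference of -0.71 (SE 0.13, limma adjusted p = 0.0029), the second largest fall of the list. Egfl7, a secreted factor whose gene hosts the endothelial microRNA miR-126, had a difference of -0.028 (95% interval -0.44 to 0.38), its wild-type values ranging from 8.94 in mouse 3 to 10.27 in mouse 4 and its knock-out values from 9.46 to 9.57.

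Among the transcription factors and remaining pan-endothelial genes, only Sox18 passed. Sox18 (ENSMUSG00000046470, chromosome 2, 181669836 to 181671640), a SoxF factor needed for vessel and lymphatic development, had 7.55, 8.05, 8.15, 8.09 and 7.86 in wild-type and 7.31, 7.20, 7.28, 7.55 and 7.44 in knock-out mice 1 to 5. The knock-out maximum of 7.547, in mouse 4, nearly reached the wild-type minimum of 7.554, in mouse 1. The difference was -0.59 (SE 0.13, limma adjusted p = 0.00736). Erg, the ETS factor that maintains endothelial identity, had a difference of -0.42 (95% interval -0.88 to 0.033, limma adjusted p = 0.217), its wild-type values spreading from 6.54 in mouse 4 to 7.89 in mouse 5. Without wild-type mouse 5 the difference of Erg was -0.24. Myct1 and Ecscr, both membrane proteins of endothelium, differed by -0.36 (limma adjusted p = 0.0995) and -0.33 (limma adjusted p = 0.145), and in each gene 4 of 5 knock-out mice were lower than every wild-type mouse. Ecscr differed by -0.21 without knock-out mouse 3. Tal1, a factor shared by blood and endothelial precursors, was the lowest member per kilobase of exon, with rlog means of 5.01 ± 0.31 (SD, n = 5) and 4.99 ± 0.17 (SD, n = 5), a difference of -0.018 (95% interval -0.35 to 0.31).

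**Figure D2:**
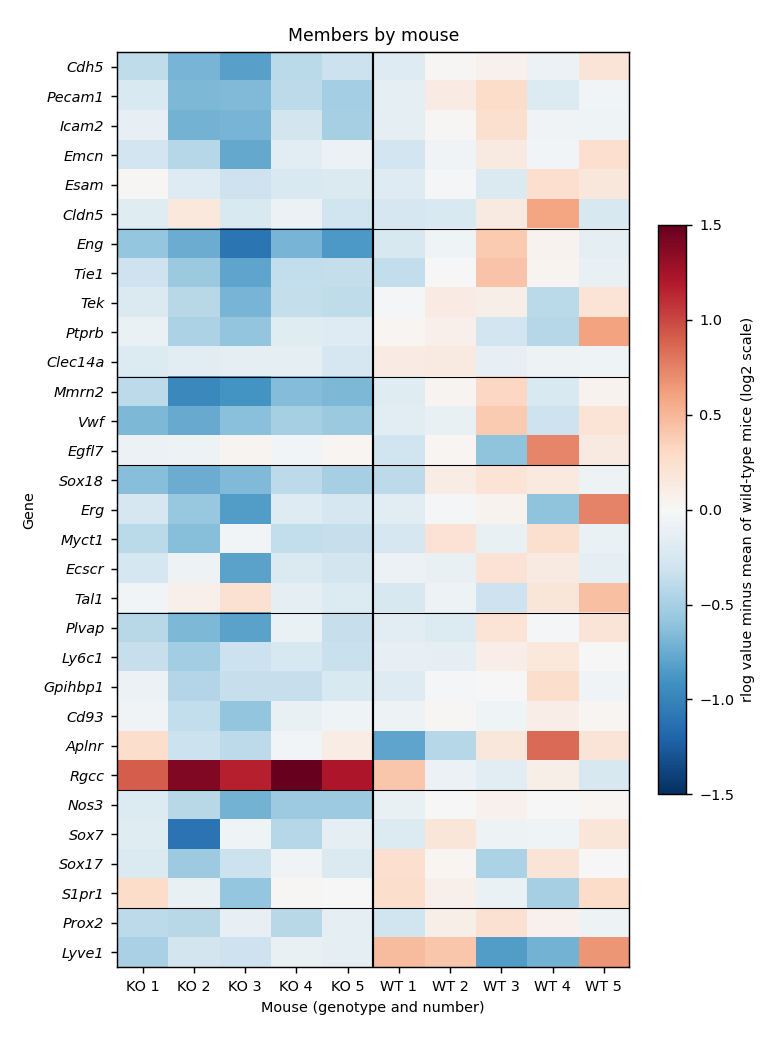
Deviation of each member from its wild-type mean (color, log2 scale) in each of the 10 mice (columns). Blue prevails in the 5 knock-out columns, where 27 to 29 of 31 members lay below their wild-type mean, and Rgcc stands out in red. In wild-type mouse 1, 25 members lay below that mean, and in the other wild-type mice 12 to 14.

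Of the 6 capillary members, 5 had a lower mean in knock-out mice and 1, Rgcc, a higher mean. Among all tested genes, 50.5% had a lower mean. By the test, Plvap and Ly6c1 were lower, Rgcc was higher and Gpihbp1, Cd93 and Aplnr did not pass. Plvap, which forms the diaphragms of fenestrae and caveolae and is found also in venules, had 8.21, 8.17, 8.59, 8.34 and 8.57 in wild-type and 7.96, 7.70, 7.58, 8.28 and 8.03 in knock-out mice 1 to 5, with knock-out mouse 4 inside the wild-type range. Its difference of -0.47 (SE 0.14, limma adjusted p = 0.0443) lost the call in 7 of 10 fits with 1 mouse left out, namely without knock-out mice 1, 2, 3 or 5 or wild-type mice 3, 4 or 5 (adjusted p up to 0.116). Ly6c1, a GPI-anchored surface protein of endothelium, had 10.81, 10.79, 11.03, 11.09 and 10.94 in wild-type and 10.58, 10.41, 10.61, 10.69 and 10.59 in knock-out mice 1 to 5. Its genotypes did not overlap, with a difference of -0.35 (SE 0.09, limma adjusted p = 0.0192, and 0.0614 without knock-out mouse 2). Ly6c2, the near-identical neighbour that monocytes and T cells use, lay between 1.58 and 1.98 in all mice and under the limit for testing, but the split of reads between such similar genes is uncertain.

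Gpihbp1 brings lipoprotein lipase to the capillary surface. Its values were 9.62 to 10.08 in wild-type and 9.37 to 9.72 in knock-out mice, with 4 of 5 knock-out mice below all wild-type mice, and its difference of -0.29 (95% interval -0.52 to -0.067) had an adjusted p of 0.0833 (limma). Cd93, a lectin-like receptor that binds multimerin 2, differed by -0.24 (95% interval -0.48 to 0.0045, limma adjusted p = 0.19), and by -0.15 without knock-out mouse 3. Aplnr, the apelin receptor, had wild-type values from 6.58 in mouse 1 to 8.23 in mouse 4 and knock-out values from 6.98 to 7.64. With this spread its difference of -0.076 (95% interval -0.62 to 0.47) is uncertain in sign and was 0.14 without wild-type mouse 4.

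Rgcc was the exception of the list. It encodes a regulator of the cell cycle that was first described as a response gene to complement and that is used as a marker of capillary endothelium. Its rlog values were 12.20, 11.70, 11.61, 11.87 and 11.54 in wild-type and 12.70, 13.18, 12.96, 13.44 and 12.997 in knock-out mice 1 to 5. Every knock-out mouse lay above every wild-type mouse, the closest being knock-out mouse 1 and wild-type mouse 1. Rgcc (ENSMUSG00000022018, chromosome 14, 79288756 to 79301645) had a knock-out mean of 13.05 ± 0.27 (SD, n = 5) against 11.79 ± 0.26 (SD, n = 5), a difference of 1.27 (SE 0.15, limma adjusted p = 8.3e-05), or 2.41-fold on this scale. It kept this direction and an adjusted p under 0.05 in all 18 alternative fits. Which cells of the muscle made the RNA of Rgcc cannot be told from whole muscle and was not tested. Rgcc was also the most abundant member per length. Its wild-type mean per kilobase of exon (rlog value minus log2 of the exonic length in kilobases) was 11.91, compared with 10.19 for Ly6c1 and between 2.88 and 8.46 for the other 29 members. Rgcc also had the highest mean rlog value of the members in both genotypes, and so the largest weight in sums, which do not adjust for length. Over all 31 members on the linear scale, the log2 sums were 14.25 to 14.33 in wild-type and 14.21 to 14.57 in knock-out mice. Without Rgcc, a choice made after its values were seen, the log2 sums were 13.85 to 14.10 in wild-type and 13.43 to 13.76 in knock-out mice and did not overlap.

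The promoters of Eng, the member that fell most, and of Rgcc, the member that rose, are shown with that of Tek, which was lower but lacks the ETS core searched for. Start sites of 13 of the 31 members were matched in the RefSeq table. The 250 bases before the RefSeq start were searched on both strands for AGGAAG, a core that ETS factors such as ERG bind, and for AACAAT, a SOX core. AGGAAG was found in 5 of the 13 member promoters (Egfl7, Emcn, Eng, Rgcc and Tie1) and in 29.2% of all 27025 promoters of the table, and AACAAT in 2 of 13 (Emcn and Tek) and in 9.65% of all. The letters are thus held by the promoter of Rgcc as well as by that of Eng, and a match does not show that a factor binds. For Egfl7 and Tie1, most of the 250 bases searched lie inside the gene as drawn in GENCODE, so their matches may lie inside it too. Capitals mark AGGAAG or its reverse complement, and the sequences (GRCm38.p6, chr2:32646345-32646594 on the plus strand, chr4:94739039-94739288 on the plus strand and chr14:79301646-79301885 on the minus strand) end where the gene begins in GENCODE, which leaves 240 of the 250 bases for Rgcc.
Eng: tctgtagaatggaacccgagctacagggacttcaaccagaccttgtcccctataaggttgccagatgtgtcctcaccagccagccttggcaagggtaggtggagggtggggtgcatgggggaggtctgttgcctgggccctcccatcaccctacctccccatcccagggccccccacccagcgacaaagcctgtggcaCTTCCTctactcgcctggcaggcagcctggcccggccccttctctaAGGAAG
Tek: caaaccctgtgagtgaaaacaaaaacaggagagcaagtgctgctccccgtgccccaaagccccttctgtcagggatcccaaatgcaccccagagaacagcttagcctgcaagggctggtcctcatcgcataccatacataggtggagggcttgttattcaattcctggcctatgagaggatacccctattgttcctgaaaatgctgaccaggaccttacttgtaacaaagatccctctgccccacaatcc
Rgcc: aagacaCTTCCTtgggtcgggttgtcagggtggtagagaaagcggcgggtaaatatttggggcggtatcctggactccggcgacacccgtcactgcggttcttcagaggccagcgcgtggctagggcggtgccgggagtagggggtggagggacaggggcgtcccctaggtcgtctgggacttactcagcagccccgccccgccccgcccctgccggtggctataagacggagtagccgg
Eng has 2 matches, the second directly before the start, Rgcc has 1 match far from the start, and Tek has none of these but 1 SOX core (as attgtt).

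Of the 4 arterial members, Nos3 was lower and the others did not pass. Nos3, the endothelial nitric oxide synthase, had 7.73, 7.84, 7.91, 7.85 and 7.87 in wild-type and 7.64, 7.42, 7.12, 7.29 and 7.30 in knock-out mice 1 to 5. The wild-type mice lay close together and all above the knock-out mice. The difference was -0.49 (SE 0.11, limma adjusted p = 0.00873). The antisense gene Gm15587, which covers 25.2% of the exonic bases of Nos3, was listed at 0 in all mice. Sox17, a SoxF factor of arterial endothelium, had 7.57, 7.34, 6.83, 7.50 and 7.31 in wild-type and 7.09, 6.77, 6.98, 7.26 and 7.09 in knock-out mice 1 to 5, so that only wild-type mouse 3 fell into the knock-out range. Its difference of -0.27 (95% interval -0.58 to 0.041, limma adjusted p = 0.247) became -0.39 with an adjusted p of 0.0308 without wild-type mouse 3. Sox17 lies on the chromosome of Des, 70.9 Mb away. Sox7, the third SoxF factor, differed by -0.39 (95% interval -0.78 to 0.008), with knock-out mouse 2 lowest at 5.54, and by -0.20 without that mouse. S1pr1, the receptor for sphingosine-1-phosphate that stabilizes vessels, differed by -0.08 (95% interval -0.45 to 0.29), from -0.21 without wild-type mouse 4 to 0.044 without knock-out mouse 3.

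Neither lymphatic member passed. Lyve1, the hyaluronan receptor of lymphatic endothelium that tissue macrophages also carry, had 7.26, 7.20, 5.95, 6.08 and 7.45 in wild-type and 6.31, 6.51, 6.48, 6.68 and 6.66 in knock-out mice 1 to 5. Wild-type mice 3 and 4 lay below all knock-out mice and the other 3 wild-type mice above them, so the difference of -0.26 has a 95% interval of -0.83 to 0.31 (limma adjusted p = 0.562). The difference of Lyve1 was -0.47 without wild-type mouse 3, -0.44 without mouse 4, -0.14 without mouse 1, -0.16 without mouse 2 and -0.096 without mouse 5. Prox2 had 5.80, 6.19, 6.32, 6.16 and 6.01 in wild-type and 5.70, 5.68, 5.97, 5.68 and 5.95 in knock-out mice 1 to 5, a difference of -0.30 (SE 0.12, limma adjusted p = 0.137). Prox2 is a relative of Prox1, and it is Prox1 that specifies lymphatic endothelium. Prox2os on the opposite strand covers 16.3% of the exonic bases of Prox2 and differed by 0.26 (limma adjusted p = 0.294), and if strand was not used in counting, reads of the pair cannot be told apart. Before adjustment, 1 of both genes, Prox2, was under 0.05 in limma.

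Across the groups, 9 of 19 pan-endothelial, 2 of 6 capillary, 1 of 4 arterial and 0 of 2 lymphatic members were lower. Among all tested genes, 5.99% were lower. The median differences were -0.41, -0.26, -0.33 and -0.28. With 2 to 6 genes in the vessel-type groups, and with differences inside the capillary group from -0.47 to 1.27, the groups could not be ordered by these values, and no test of a difference between them was made.

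**Figure D3:**
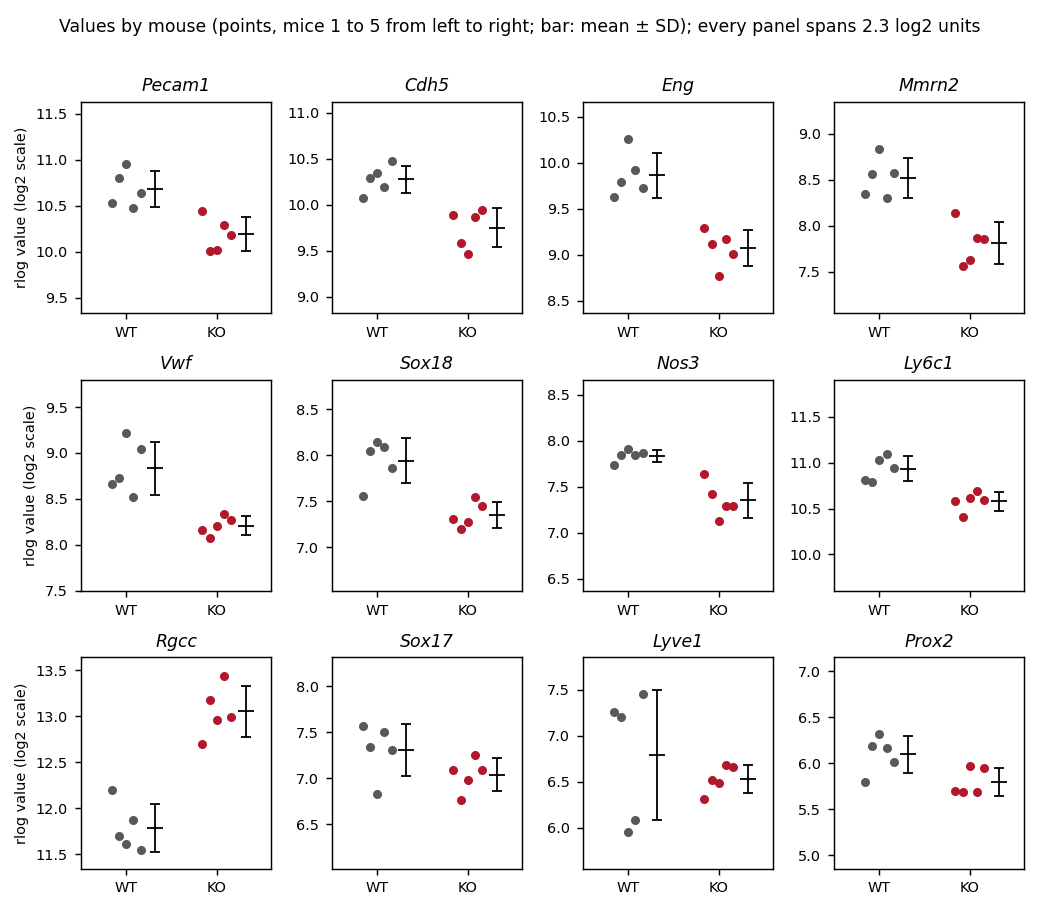
Rlog values (y axis, log2 scale) of 12 members in 5 wild-type (grey) and 5 knock-out mice (red), with mean and SD. The first 8 panels show a lower knock-out group without overlap, Rgcc a higher one, and Sox17, Lyve1 and Prox2 groups that overlap.

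The fall was shared by the knock-out mice but differed in size between them. Averaged over the 31 members, the deviation from the wild-type mean was -0.20, -0.40, -0.45, -0.21 and -0.24 in knock-out mice 1 to 5 and -0.13, 0.0032, 0.011, 0.013 and 0.10 in wild-type mice 1 to 5. Knock-out mouse 3 was the lowest of its genotype for 14 members and knock-out mouse 2 for 11, whereas knock-out mouse 4 was the lowest for none. Among wild-type mice, mouse 1 was the lowest for 14 members and lay below the wild-type mean for 25. Wild-type mouse 3, which stood apart in its overall profile, was close to the wild-type mean when averaged over the members. It was the highest wild-type mouse for 11 members and the lowest for 6. This average hides opposite deviations. The mouse lay above the wild-type mean for every member called lower (Tie1 0.42, Eng 0.39), and 12 other members lay below it (Lyve1 -0.84, Egfl7 -0.60). Without wild-type mouse 3 the falls of the members called lower were smaller, such as -0.70 for Eng, -0.42 for Pecam1 and -0.37 for Tie1.

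Genes of the same vessel types that are not members were counted from further lists. For these lists and the cell markers below, the shares over all tested genes were 5.99% lower and 7.7% higher. Of 8 other capillary genes, Tcf15 (-0.63, adjusted p = 0.00197), a transcription factor of capillary endothelium of muscle and heart, and Cd300lg (-0.60, adjusted p = 0.0141), a mucin-like receptor of capillaries, were lower and Meox2 (0.45, adjusted p = 0.0385), a homeobox gene also active in muscle cells, was higher (limma). The median of these 8 genes was -0.089. Of 9 other arterial genes, Stmn2 (-0.66, adjusted p = 0.00194) and Sema3g (-0.50, adjusted p = 0.0164) were lower, and the median was -0.33 (limma). Hey1, a Notch target of arteries, had the next smallest adjusted p (-0.36, limma adjusted p = 0.0949). Of 6 tested venous genes, Ephb4 (-0.57, adjusted p = 0.00114), the ephrin receptor of veins, and Lrg1 (-0.83, adjusted p = 0.0318) were lower, with a median of -0.18 (limma). Nr2f2, the COUP-TFII gene that sets venous fate, differed by 0.43 (limma adjusted p = 0.163), and Sele lay under the limit for testing. The call of Meox2 was lost without any 1 of the knock-out mice or of wild-type mice 2 and 4, and that of Lrg1 without knock-out mice 1, 2, 4 or 5 or wild-type mice 2 or 4.

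The lymphatic genes outside the list went in different directions. Of 7 tested genes, Prox1 (0.69, adjusted p = 5.9e-04) and Reln (0.71, adjusted p = 0.00696) were higher and Thy1 (-0.62, adjusted p = 0.0212) was lower, with a median of 0.29 (limma). Prox1 had 5.56, 5.44, 5.33, 5.52 and 5.64 in wild-type and 6.19, 6.04, 6.30, 6.15 and 6.24 in knock-out mice 1 to 5, without overlap. It is active in slow muscle fibers and satellite cells as well as in lymphatic endothelium, and Thy1 in fibroblasts and T cells. Ccl21a, a chemokine of lymphatic vessels, was listed at 0 in all mice.

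Markers of other cells in the muscle also moved with the genotype, and their part in the result was not tested. Of 10 genes of pericytes and smooth muscle, Cspg4 (1.02, adjusted p = 9.7e-05) was higher and Kcnj8 (-0.53, adjusted p = 0.0144) and Higd1b (-0.54, adjusted p = 0.0196) were lower (limma), and their log2 summed level was 14.33 to 14.84 in wild-type and 14.22 to 14.44 in knock-out mice. Of 5 tested erythroid genes, Alas2 (-0.9999, adjusted p = 0.0161) and Hbb-bs (-0.74, adjusted p = 0.0248) were lower (limma), with a log2 summed level of 12.00 to 13.37 in wild-type and 11.49 to 12.09 in knock-out mice. Of 5 muscle fiber genes, Actn3 (-0.97, adjusted p = 0.0196) and Myh4 (-0.71, adjusted p = 0.036), both of fast fibers, were lower (limma). The others were Acta1, Ckm and Pvalb, so that this list holds no gene particular to slow fibers. Its log2 summed level was 21.87 to 22.86 in wild-type and 21.52 to 21.72 in knock-out mice. Wild-type mouse 3 held the highest of the erythroid and muscle fiber sums, and without it the wild-type maxima were 12.29 and 22.27. Median differences were -0.30 for pericytes and smooth muscle, -0.74 for erythroid and -0.59 for muscle fiber genes, against -0.35 for the members.

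Fibroblast and blood cell markers differed in other ways. Of 6 fibroblast genes, the collagen genes Col1a1 (0.50, adjusted p = 0.0437) and Col3a1 (0.52, adjusted p = 0.0447) were higher (limma), and the log2 summed level was 13.19 to 14.17 in wild-type and 13.59 to 14.20 in knock-out mice. None of 9 tested macrophage genes passed (limma; differences from -0.23 to 0.24; 0 under 0.05 before adjustment), nor did the monocyte genes Ccr2 and Plac8 (0 before adjustment) or the platelet genes Pf4 and Itga2b (1 before adjustment, Itga2b). The T cell genes Cd3e, Cd3g, Cd4 and Cd8a, the erythroid gene Klf1 and the macrophage gene Timd4 lay under the limit for testing. Calls that were lost in some fit with 1 mouse left out were those of Thy1 (knock-out mice 1 or 3), Hbb-bs (knock-out mice 1, 3 or 4), Actn3 (knock-out mice 4 or 5), Myh4 (any but wild-type mice 3 or 5), Col1a1 (any but knock-out mouse 3 or wild-type mice 3 or 5) and Col3a1 (any but knock-out mouse 3 or wild-type mouse 1).

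**Figure D4:**
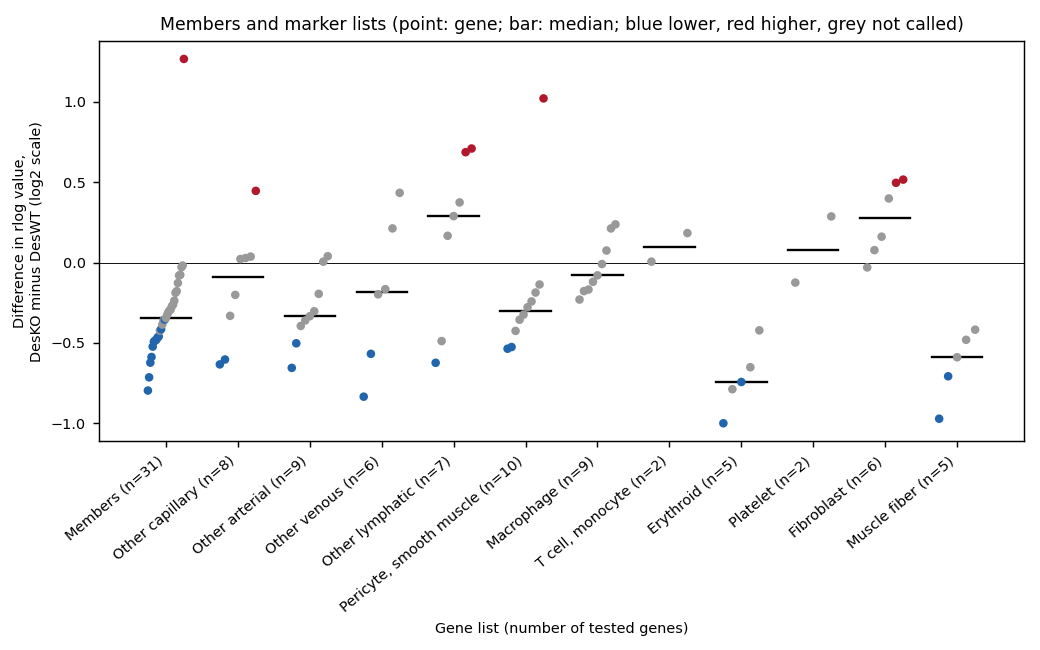
Difference in rlog value (y axis, log2 scale) between knock-out and wild-type muscle for the members and for marker lists of vessels and other cells (x axis), 1 point per tested gene with the median as a bar. The members have a median of -0.35 with Rgcc far above the rest. Erythroid genes have a median of -0.74, muscle fiber genes of -0.59 and pericyte and smooth muscle genes of -0.30. The median is 0.29 for other lymphatic, 0.28 for fibroblast and -0.079 for macrophage genes.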

How the data were processed

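Stranded mRNA libraries of muscle RNA were sequenced for 5 mice of each genotype. Per the labels and methods, reads were assigned to mm10 (GRCm38) genes by the authors with featureCounts and passed to DESeq2, and whether strand was used is not given in the sources used here. The submitters' processing notes also name cutadapt 2.5, STAR 2.5.4a and Subread 1.6.1. The values deposited by the authors are rlog values on a log2 scale, shrunken towards the mean of each gene. Counts and depth are unknown from them, so no counting error can be given. All 10 sample columns were used.

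The genotypes were compared by limma 3.58.1 (R 4.3.3; lmFit and eBayes with an intensity trend; two-sided) in all 14289 genes whose mean reached log2(10), and p-values were adjusted after Benjamini and Hochberg over these genes. Symbols (54079 of 54232 genes), positions and exonic lengths came from GENCODE M21, promoters from RefSeq. Values in every mouse were given for Des, for members that passed or did not overlap, and for Pecam1, Cdh5, Sox17, Lyve1 and Prox2, and up to 3 genes by adjusted p for other lists. Prox1 values and the sums without Rgcc were added after values had been seen. The members, lists and tests were chosen with earlier results of these data known. The alternatives dropped the limit, raised it to log2(50), centred on medians, normalized by quantiles, used 1 prior variance for all genes, weighted samples, blocked on the replicate number, left out each mouse, and, added later, removal of trends on GC content and length.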

Additional observations from a re-analysis of the deposited data

Results flagged for a closer look

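Each genotype's 5 values were searched for a mouse far from the other 4 (gap over range above 0.71) for the members, Des, the other genes named and 2 measures of the samples. Of 130 groups, 10 had such a mouse, where chance gives about 6.5. Only 1 of them belongs to a member, Ecscr in knock-out mouse 3 (7.01, the next value being 7.53). Knock-out mouse 3 also had the lowest Kcnj8 (7.62) and Col3a1 (11.60) and the highest Lrg1 (8.22) of its genotype. Wild-type mouse 3 was the highest for Des (17.74), Alas2 (8.28), Hbb-bs (12.44), Hbb-bt (10.21), Actn3 (19.34) and for its rlog values summed on the linear scale (1.48 times the median of all mice). No member had wild-type mouse 3 as such a value.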

How the results depend on the processing

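The number of lower members stayed within 1.5 times of 12 in all 18 alternatives except without knock-out mouse 2, where it was 7. It was 12 with median centring, quantile normalization and a limit of log2(50), 8 without a limit and 17 with sample weights. With trends on GC content and length removed, an alternative chosen after seeing the data, it was 10. The share of all tested genes called lower also moved, from 5.99% in the main fit to 2.21% without a limit and 14.9% with sample weights. That share was 7.8% with these trends removed and 4.01% without knock-out mouse 2. With 1 mouse left out at a time, the number of changed members ranged from 8 to 12, of lower members from 7 to 11 and of members with a lower mean from 26 to 30. Lower capillary members then numbered 0 to 2, arterial 1 to 2 and receptor members 1 to 2. Rgcc was the 1 higher member each time. Over all tested genes, leaving out 1 mouse gave 1400 to 2496 changed genes, 833 to 1335 higher and 560 to 1161 lower, and sample weights gave 4220 changed genes, 2093 higher and 2127 lower, in place of 1956, 1100 and 856; the cause was not tested. Of the 13 called members, 8 (Rgcc, Nos3, Pecam1, Cdh5, Eng, Vwf, Mmrn2 and Sox18) passed in every alternative, whereas Ly6c1 (1 alternative), Plvap, Icam2, Tie1 and Tek did not. Among members that had not passed, Sox17 did in 2 alternatives and Gpihbp1, Ptprb, Clec14a, Myct1 and Lyve1 in 1 each, Lyve1 with sample weights (-0.57, adjusted p = 0.00439 from limma).

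Differences near 0 changed sign. With sample weights this was so for Aplnr (0.36), Cldn5 (0.038) and Egfl7 (0.018), and with GC and length trends removed for Egfl7 (0.055), Tal1 (0.023) and Ccr2 (-0.15). Ccr2 was -0.036 with median centring and -0.055 with quantile normalization. With 1 mouse left out, the differences ranged from -0.27 to 0.14 for Aplnr, -0.21 to 0.044 for S1pr1, -0.20 to 0.022 for Cldn5, -0.18 to 0.16 for Egfl7, -0.094 to 0.095 for Tal1, -0.19 to 0.15 for Ccr2 and -0.26 to 0.010 for Pf4.

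With the replicate number as a block, 9 members changed, 8 of them lower, and 1579 genes changed in all. The correlations of same-numbered mice after removal of the genotype means lay between -0.22 and 0.067. They gave no sign that the numbers pair the mice, but cannot exclude it.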
